A study of Saccharomyces cerevisiae with 6 samples.

Results

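Chromosome III of budding yeast was read window by window, with 7 of its known replication origins and its 3 mating-type loci as fixed points. All windows of 1 kb that do not overlap were taken, which gave 317 windows on chromosome III of 12070 in the genome. Of these, 303 of 11509 carried a scaled copy number ratio in all 4 S phase profiles. The origins were read at the positions ARS305 (39 kb), ARS306 (74 kb), ARS307 (108 kb), ARS309 (132 kb), ARS310 (167 kb), ARS315 (225 kb) and ARS316 (272 kb). The mating-type loci were read near HML (11 to 15 kb), MAT (198 to 201 kb) and HMR (292 to 295 kb). Positions are on the SacCer2 build of the S288c reference. The rule that lists these loci uses no measured value, though it was written with earlier results of these data known.

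The study asked how a domain of DNA polymerase ε, the leading strand polymerase, contributes to replication. *pol2-REL* cells carry an allele of POL2, the gene for its catalytic subunit, with 3 altered residues and the tag given in the labels as pol2-REL-3HA::KAN. Wild-type cells carry the same tag on the normal gene (Pol2-3HA::KAN). Both strains are W303 derivatives, a laboratory background that differs from the S288c reference, and the paper's strain list gives both genotypes as MATa. Cultures were grown in YPD at 24 °C, arrested in G1 with alpha-factor, released with pronase and collected before release (G1) and 30 or 40 min after it. Each genotype is represented by 1 strain and each of the 6 conditions by 1 library, which allows no test between them and gives no measure of how cultures vary. Whole-genome sequencing counted DNA reads per window.

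An origin is the place where the replicative helicase is loaded in G1 and activated in S phase, and from each fired origin a pair of forks copies DNA outward. In a profile of S phase over G1 reads, an early or often used origin stands as a peak, and stretches copied late lie low. ARS305, ARS306 and ARS307 on the left arm are among the best studied early origins of yeast. HML and HMR hold silent copies of mating-type genes in closed chromatin, with origin sequences in their silencers, and MAT holds the copy that is expressed.

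The read depth on chromosome III set the counting error. The 6 libraries held between 19156804 and 40161464 reads over all windows, of which between 519822 and 1099432 lay on chromosome III. The counting error of its median window was 1.68 to 2.44% per library. Intervals below are 95% intervals from the read counts alone, assuming independent reads, and they do not cover the difference between cultures. Relative to the genome's median window, the median window of chromosome III stood at 1.03 in *pol2-REL* G1 and at 1.43 in wild-type G1. In S phase it stood at 1.16 in *pol2-REL* and 1.05 in wild type at 30 min, and at 1.21 in *pol2-REL* and 1.23 in wild type at 40 min. The deposited scaled ratio sets the mean of every chromosome to 1 and so removes this difference between the G1 libraries. A level below is this scaled ratio, so it compares a locus with the rest of chromosome III and cannot show whether the chromosome as a whole was copied less. Scaled instead to a genome mean of 1, chromosome III averaged 1.09 in *pol2-REL* and 0.759 in wild type at 30 min, and 1.13 in *pol2-REL* and 0.859 in wild type at 40 min. On that scale the share of chromosome III windows lower in *pol2-REL* was 0% for 30 min and 3.30% for 40 min. The share over all windows of the genome was not computed on that scale. Each direction below is thus relative to the chromosome mean, and that of ARS309, ARS310, ARS316 and HMR turns where they are given as lower in *pol2-REL*. How much of that difference belongs to the depth of the wild-type G1 library was not tested.

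At 40 min the genotypes differed in long blocks along chromosome III. The block chrIII:116001-172000 around ARS309 and ARS310 was lower in *pol2-REL*, and the block chrIII:242001-280000, which holds ARS316, was higher, relative to the chromosome mean. ARS306 was higher in *pol2-REL* at both times, while the levels of ARS305 and ARS307 were within counting error of wild type in these windows. At 30 min the profiles were closer, and the levels beyond counting error were at ARS306, ARS310, ARS316 and HMR. Some of these calls changed with the processing, as given above for the scaling and below at each locus.

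**Figure D1:**
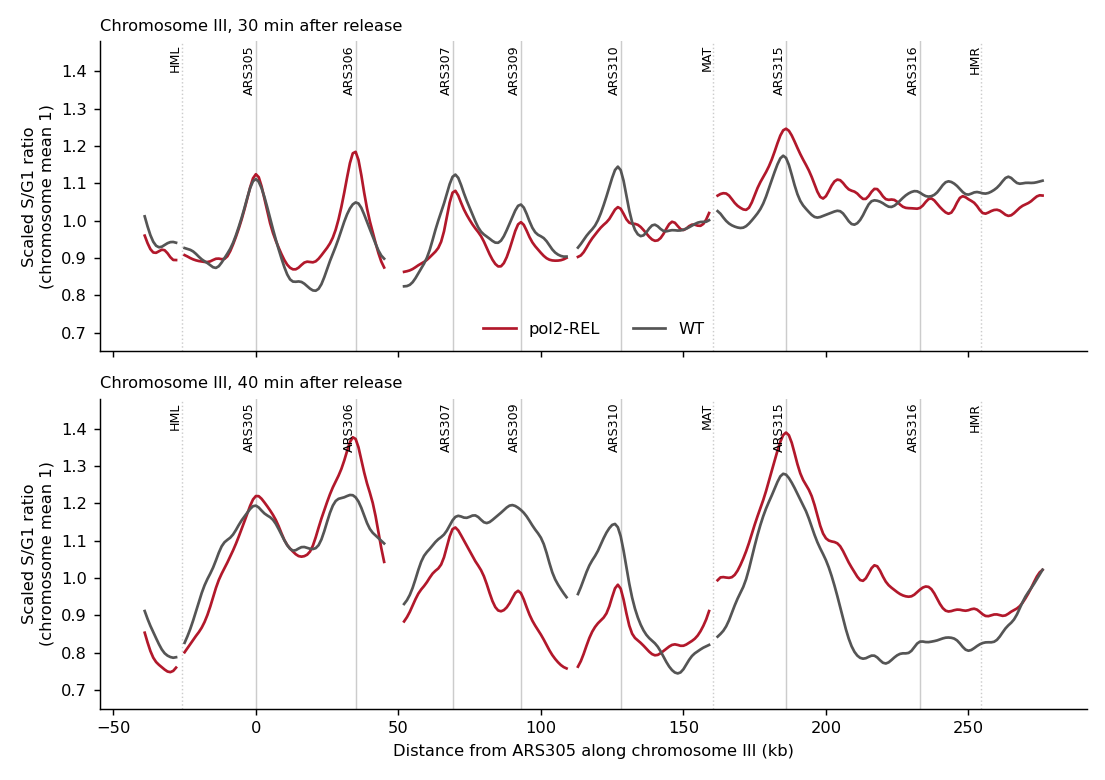
Scaled S phase to G1 ratio along chromosome III, smoothed by a Gaussian kernel (SD 2 kb), against distance from ARS305 in kb, at 30 min (top) and 40 min (bottom) after release; *pol2-REL* is red and wild type grey, 1 library each, solid vertical lines mark the 7 origins, dotted lines the 3 mating-type loci, and gaps are windows without a ratio in all 4 profiles. At 40 min the *pol2-REL* line lies under the wild-type line from ARS307 to past ARS310 and above it from ARS315 to HMR.

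Shares of windows were read against the genome. At 30 min, 153 of 303 chromosome III windows had a lower level in *pol2-REL* (50.5%, exact interval 44.7 to 56.3%), against 52.6% of all windows. A difference of at least 10% was seen in a smaller share of windows than in the genome. There were 17 windows lower by that much (5.61%, 3.30 to 8.83%), against 12.4% in the genome, and 31 windows higher by that much (10.2%, 7.06 to 14.2%), against 15.3%. At 40 min, 136 windows (44.9%, 39.2 to 50.7%) were lower in *pol2-REL*, against 49.3% in the genome. By at least 10%, 63 windows were lower (20.8%, 16.4 to 25.8%), against 22.8%, and 75 windows were higher (24.8%), against 28.6%. At 40 min the intervals of both lower shares include the share of the genome. With the 5th percentile of each profile set to 1 in place of its mean, 73.6% of chromosome III windows were lower in *pol2-REL* for 30 min and 44.9% for 40 min. The share of the genome was not computed on that scale. The intervals of the shares treat windows as independent draws, which neighbours on a chromosome are not.

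The spread of the chromosome III profile, the SD of its smoothed values over windows, measures how far peaks and valleys stand apart. At 30 min it was 0.0853 in *pol2-REL* and 0.0801 in wild type, a ratio of 1.06 (1.01 to 1.12). At 40 min it was 0.154 in *pol2-REL* and 0.154 in wild type, a ratio of 1.00 (0.971 to 1.03). Across the chromosomes other than III the ratio ran between 0.492 and 1.17 at 40 min, with a median of 0.693. Chromosome III was at rank 14 of all 16, counted from the lowest. At 30 min the ratios of the other chromosomes ran between 0.709 and 1.31 with a median of 1.01, and chromosome III was at rank 10. The ratio of chromosome III at 30 min depended on the G1 library, since it was 0.954 with the G1 libraries exchanged. With S phase reads alone, whose spread also holds the unevenness of depth seen in G1, it was 0.906. With a mean of 1 over the genome it was 1.53 at 30 min and 1.31 at 40 min. Within each genotype the spread was larger at 40 min than at 30 min, by 1.80 times in *pol2-REL* and 1.92 times in wild type. Within the *pol2-REL* profile at 40 min chromosome III had the 4th highest spread of the 16, against the 12th highest in wild type.

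ARS305, the leftmost of the origins, differed little in level between the genotypes. Over the 3 windows of chrIII:38001-41000 its level at 30 min was 1.19 in *pol2-REL* and 1.14 in wild type, a ratio of 1.04 (0.996 to 1.08). At 40 min it was 1.25 in *pol2-REL* and 1.22 in wild type, a ratio of 1.03 (0.990 to 1.07). The interleaved windows start 500 bp later, and fewer of them fall at an origin, so their levels cover a narrower span. With them the level of ARS305 was higher in *pol2-REL* beyond counting error at both times, at 1.06 for each with a lower bound of 1.01. The maximum of the smoothed profile lay in the window that starts at 39001 in all 4 profiles. At 40 min the wild-type peak stood less far above its surroundings. Its height, the level at the centre divided by the mean at 15 to 20 kb on both sides, minus 1, was 0.300 in *pol2-REL* and 0.168 in wild type, a difference of 0.132 (0.0745 to 0.189), which was 0.0637 (0.00758 to 0.120) with the G1 library of each genotype exchanged for the other. The heights at 30 min were 0.342 in *pol2-REL* and 0.330 in wild type.

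ARS306 was higher in *pol2-REL* beyond counting error at both times. Its 3 windows (chrIII:73001-76000) held 10519 S phase reads and 4972 G1 reads in *pol2-REL* at 30 min, against 11746 and 11022 in wild type. These gave levels of 1.25 in *pol2-REL* and 1.06 in wild type, a ratio of 1.18 (1.13 to 1.23). At 40 min the levels were 1.42 in *pol2-REL* and 1.21 in wild type, a ratio of 1.17 (1.12 to 1.22). In *pol2-REL* at 40 min ARS306 and ARS315 had the highest levels of the 10 loci, at 1.42 and 1.41, which did not differ beyond counting error. In wild type at 30 min ARS306 ranked 8th of the 10 loci. The G1 libraries also differed here. G1 depth over the run of windows from 72001 to 76000, relative to the chromosome, was 0.951 times as high in *pol2-REL* as in wild type, and with the G1 libraries exchanged the ratio of levels was 1.06 at 30 min and 1.04 (1.00 to 1.09) at 40 min. With S phase reads alone it was 1.12 at 30 min and 1.10 at 40 min. The height of ARS306 was 0.424 in *pol2-REL* and 0.279 in wild type at 30 min, and 0.440 in *pol2-REL* and 0.178 in wild type at 40 min. The difference of 0.146 at 30 min turned to -0.0422 (-0.109 to 0.0245) with the G1 libraries exchanged and was 0.0501 with S phase reads alone. The difference of 0.262 at 40 min was 0.0744 (0.0119 to 0.137) with the G1 libraries exchanged and 0.166 with S phase reads alone.

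ARS307 had levels of 1.14 in *pol2-REL* and 1.14 in wild type at 30 min (chrIII:107001-110000), and of 1.18 in *pol2-REL* and 1.16 in wild type at 40 min. The ratios were 0.999 (0.956 to 1.04) and 1.02 (0.973 to 1.06). Its surroundings differed at 40 min. On its right side the wild-type profile stayed level toward ARS309, and the height of ARS307 was 0.317 in *pol2-REL* and 0.0627 in wild type, a difference of 0.254 (0.191 to 0.317), which was 0.140 (0.0804 to 0.201) with the G1 libraries exchanged. Its heights at 30 min were 0.311 in *pol2-REL* and 0.257 in wild type, a difference of 0.0538 (-0.0126 to 0.120). The direction of that difference depended on the processing, since it was -0.0667 (-0.133 to -0.000403) with the G1 libraries exchanged and 0.204 (0.0876 to 0.321) with the central window alone.

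**Figure D2:**
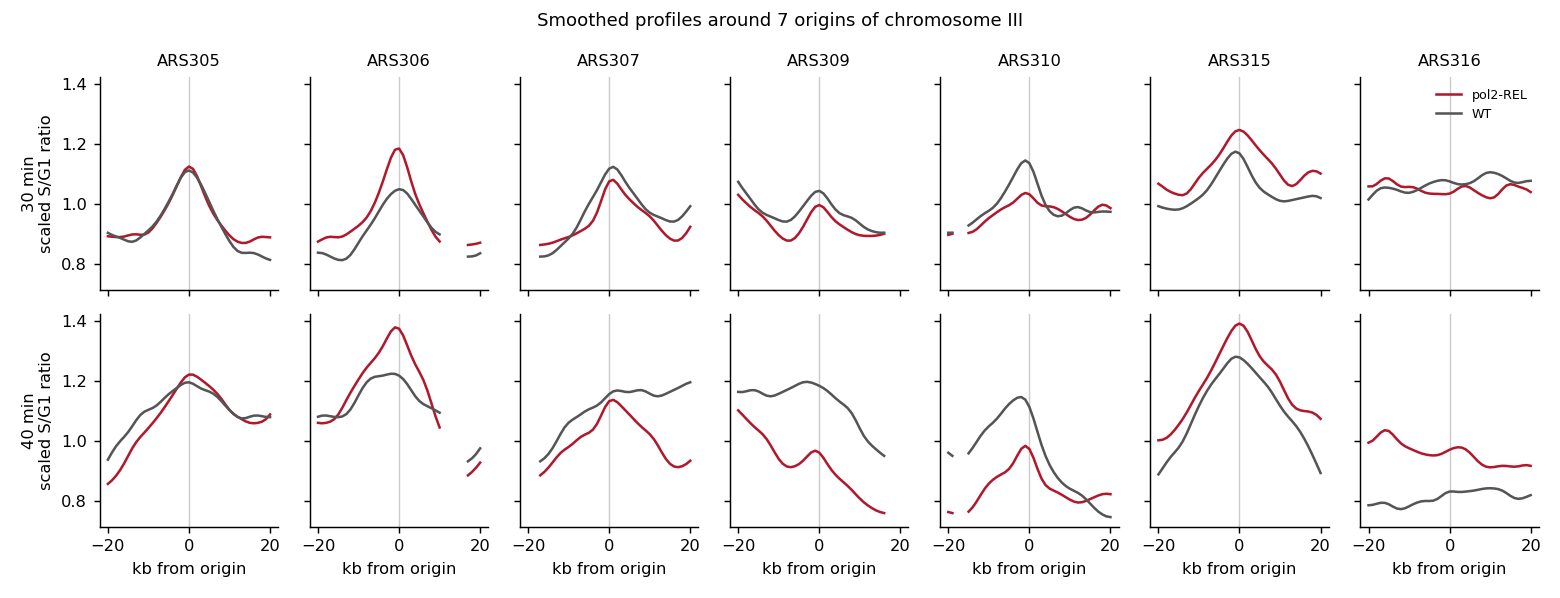
Smoothed scaled S phase to G1 ratio within 20 kb of each of the 7 origins, against distance from the origin in kb, at 30 min (top row) and 40 min (bottom row), with *pol2-REL* in red and wild type in grey, 1 library each. In wild type at 40 min ARS307 and ARS309 stand on a shared plateau, with heights of 0.0627 at ARS307 and 0.103 at ARS309, while in *pol2-REL* a low of 0.911 lies between them.

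ARS309 and the windows on both sides of it were lower in *pol2-REL* at 40 min. Over chrIII:131001-134000 the level at 40 min was 0.988 in *pol2-REL*, from 9267 S phase reads, and 1.19 in wild type, from 10181 reads. The ratio was 0.829 (0.793 to 0.867), and it was 0.849 with the G1 libraries exchanged and 0.836 with S phase reads alone. At 30 min the levels were 1.04 in *pol2-REL* and 1.08 in wild type, a ratio of 0.964 (0.922 to 1.01). With the 5th percentile of each profile set to 1, the ratios at 30 min lay below 1 beyond counting error at ARS309 (0.919) and at ARS307 (0.953). The stretch between ARS309 and ARS310 averaged 0.856 in *pol2-REL* and 1.07 in wild type at 40 min, and all 32 of its windows were lower in *pol2-REL*. The stretch between ARS307 and ARS309 averaged 1.02 in *pol2-REL* and 1.17 in wild type, with 23 of 24 windows lower in *pol2-REL*. At 30 min the ratios of these stretches were 0.958 (0.944 to 0.971) and 0.960 (0.944 to 0.975).

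On the smoothed profiles, the longest run of windows lower in *pol2-REL* by at least 10% at 40 min covered 33 windows, chrIII:116001-149000. Its mean level was 0.898 in *pol2-REL* and 1.12 in wild type. A run of 3 windows without a ratio in *pol2-REL* parts it from the next one, of 20 windows (chrIII:152001-172000), with a mean of 0.881 in *pol2-REL* and 1.06 in wild type. The ratios were 0.802 (0.791 to 0.813) and 0.831 (0.817 to 0.846), and 0.815 and 0.850 with S phase reads alone. Both runs were picked by this difference in the same profiles, so the intervals do not test it. The lowest ratio of the smoothed profiles in the first run was 0.766, in the window that starts at 140001. On the right the lower block ended just past ARS310.

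ARS310 had a lower level in *pol2-REL* at both times. Over chrIII:166001-169000 it was 1.08 in *pol2-REL* and 1.18 in wild type at 30 min, a ratio of 0.908 (0.867 to 0.950). At 40 min it was 1.02 in *pol2-REL* and 1.14 in wild type, a ratio of 0.895 (0.855 to 0.937). Its peak was also lower over its flanks, with heights of 0.114 in *pol2-REL* and 0.249 in wild type at 30 min and of 0.287 in *pol2-REL* and 0.410 in wild type at 40 min. The difference in height at 40 min was -0.123 (-0.195 to -0.0500), and it was 0.0235 (-0.0423 to 0.0894) with flanks at 10 to 15 kb and -0.0645 (-0.138 to 0.00899) with the G1 libraries exchanged. In wild type at 30 min ARS310 had the 2nd highest level of the 10 loci, not beyond counting error from ARS315 or ARS305, while in *pol2-REL* it ranked 5th.

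ARS315 on the right arm held the top of the smoothed profile in all 4 libraries. The highest window started at 225001 in *pol2-REL*, with 1.25 at 30 min and 1.39 at 40 min, and at 224001 in wild type, with 1.17 at 30 min and 1.28 at 40 min. The level at 40 min (chrIII:224001-227000) was 1.41 in *pol2-REL* and 1.30 in wild type, a ratio of 1.09 (1.05 to 1.14). At 30 min it was 1.26 in *pol2-REL* and 1.21 in wild type, a ratio of 1.04 (0.999 to 1.09). With the interleaved windows, over a narrower span, this ratio was 1.09 (1.04 to 1.15). The heights were 0.169 in *pol2-REL* and 0.207 in wild type at 30 min, a difference of -0.0379 (-0.0953 to 0.0196). This difference lay beyond counting error with the G1 libraries exchanged, at -0.0613 (-0.119 to -0.00327), with both G1 libraries summed, at -0.0495, and with S phase reads alone, at -0.0491. The heights at 40 min were 0.339 in *pol2-REL* and 0.363 in wild type. A run of 7 windows to its right (chrIII:228001-235000) was higher in *pol2-REL* by at least 10% on the smoothed profiles at 30 min. The mean levels of that run were 1.17 in *pol2-REL* and 1.04 in wild type.

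ARS316 had the lowest height of the 7 origins in *pol2-REL* at both times and in wild type at 30 min. Its height was -0.0529 (-0.0884 to -0.0173) in *pol2-REL* and 0.0304 (0.000829 to 0.0600) in wild type at 30 min, and 0.00878 (-0.0287 to 0.0462) in *pol2-REL* and 0.0763 (0.0417 to 0.111) in wild type at 40 min. The difference in height at 30 min was -0.083 (-0.13 to -0.037). It lay within counting error with the G1 libraries exchanged (-0.0303), with the interleaved windows (-0.042) and with the central window alone (-0.0544). With the centre at the local maximum it was 0.0362, also within counting error, and under the other alternatives it stayed below 0 beyond counting error. The level over chrIII:271001-274000 was 1.02 in *pol2-REL* and 1.09 in wild type at 30 min, a ratio of 0.934 (0.895 to 0.974). At 40 min it was 0.977 in *pol2-REL* and 0.859 in wild type, a ratio of 1.14 (1.09 to 1.19). The locus lies in a run of 38 windows (chrIII:242001-280000) that was higher in *pol2-REL* by at least 10% on the smoothed profiles at 40 min. The run had mean levels of 0.996 in *pol2-REL* and 0.817 in wild type, a ratio of 1.22 (1.20 to 1.23). It was picked by this difference, so the interval does not test it. With S phase reads alone the ratio of this run was 1.20. The stretch between ARS315 and ARS316 had 2 of 47 windows lower in *pol2-REL* at that time. A further maximum of the mean profile lay in this stretch at chrIII:256001-257000, away from every locus listed. Its smoothed level was 1.09 in *pol2-REL* and 1.05 in wild type at 30 min, and 1.03 in *pol2-REL* and 0.792 in wild type at 40 min. The window beside it, from 257001, had the highest smoothed ratio of that run, 1.31.

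**Figure D3:**
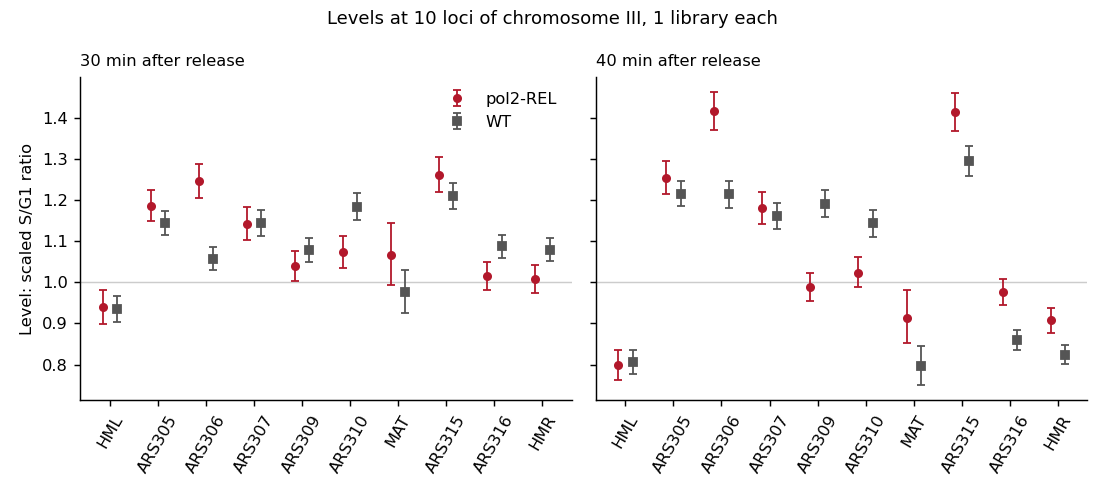
Level at the 10 loci of chromosome III in map order (mean scaled S phase to G1 ratio, chromosome mean 1) at 30 min (left) and 40 min (right), with *pol2-REL* as red circles and wild type as grey squares; each point is 1 library and bars are 95% intervals from read counts alone. At 40 min the points part at ARS306 (1.42 in *pol2-REL*, 1.21 in wild type), at ARS309 (0.988 in *pol2-REL*, 1.19 in wild type) and at ARS316 (0.977 in *pol2-REL*, 0.859 in wild type).

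The mating-type loci lay below the chromosome mean at 40 min in both genotypes. HML, over its 2 windows with a ratio in all 4 profiles, was at 0.799 in *pol2-REL* and 0.806 in wild type at 40 min, and at 0.939 in *pol2-REL* and 0.934 in wild type at 30 min. The ratios were 0.991 (0.935 to 1.05) at 40 min and 1.01 (0.950 to 1.06) at 30 min. The ratio at HML depended on the windows and the G1 library. With all windows of at least 100 reads it was 0.837 (0.765 to 0.916) at 40 min and 0.869 (0.799 to 0.944) at 30 min. At 40 min it was 0.936 (0.883 to 0.993) with the G1 libraries exchanged and 0.956 with S phase reads alone. MAT, with 1 window left, was at 0.914 in *pol2-REL* and 0.796 in wild type at 40 min, a ratio of 1.15 (1.05 to 1.26). At 30 min the ratio at MAT was 1.09 (0.999 to 1.19). With the G1 libraries exchanged it was 1.04 (0.944 to 1.14) at 40 min and 0.987 at 30 min, and with all windows of at least 100 reads it was 1.06 (0.932 to 1.20) at 40 min. HMR was at 0.908 in *pol2-REL* and 0.824 in wild type at 40 min, a ratio of 1.10 (1.05 to 1.15), and at 1.01 in *pol2-REL* and 1.08 in wild type at 30 min, a ratio of 0.933 (0.895 to 0.974). HMR and its neighbor ARS316 were thus both lower in *pol2-REL* at 30 min and higher at 40 min.

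**Figure D4:**
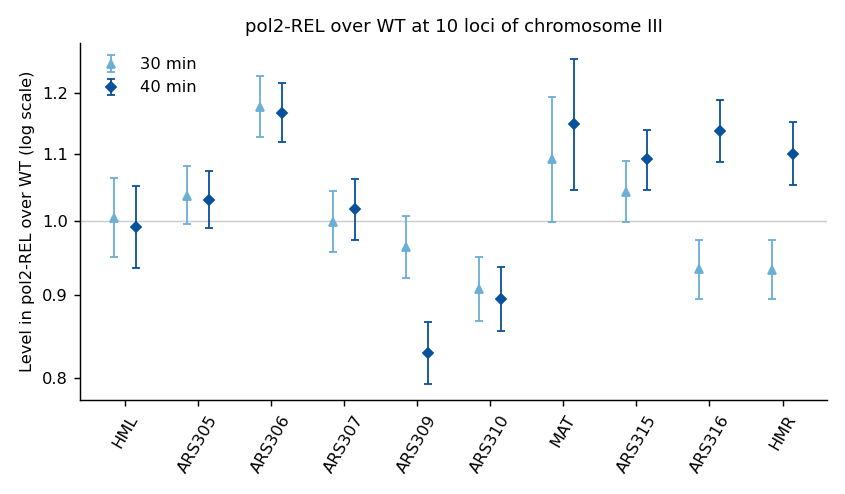
Level in *pol2-REL* over wild type at the 10 loci of chromosome III in map order, on a log axis, at 30 min (triangles) and 40 min (diamonds), with 95% intervals from read counts alone and 1 library per condition. ARS306 lies above 1 at both times and ARS310 below 1 at both times, ARS309 is lowest at 40 min (0.829), and ARS316 and HMR lie below 1 at 30 min and above it at 40 min.

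The change between the times differed along the chromosome. In the stretch from ARS305 to ARS306 the level at 40 min was 1.22 times that at 30 min in *pol2-REL* (1.21 to 1.23) and 1.24 times in wild type (1.23 to 1.25). In the stretch from ARS309 to ARS310 it was 0.906 times in *pol2-REL* (0.897 to 0.915) and 1.09 times in wild type (1.08 to 1.10). On the right arm outside ARS316 it was 0.898 times in *pol2-REL* (0.892 to 0.905) and 0.795 times in wild type (0.789 to 0.801). Within a genotype both times were divided by the same G1 library. Since each profile has a mean of 1, a ratio under 1 says that the stretch gained less than the chromosome average, and not that DNA was lost.

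Among single origins, ARS309 moved in opposite directions on this scale. Its level at 40 min was 0.950 times that at 30 min in *pol2-REL* (0.923 to 0.979) and 1.10 times in wild type (1.08 to 1.13). ARS316 was at 0.962 times in *pol2-REL* (0.935 to 0.989) and 0.790 times in wild type (0.768 to 0.812). HMR was at 0.901 times in *pol2-REL* and 0.763 times in wild type. ARS306 was higher at 40 min than at 30 min in both, by 1.14 times in *pol2-REL* and 1.15 times in wild type, and ARS315 by 1.12 times in *pol2-REL* and 1.07 times in wild type. The ratios at ARS305 (1.06 in *pol2-REL* and 1.06 in wild type) and at ARS310 (0.953 in *pol2-REL* and 0.966 in wild type) were alike within counting error.

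**Figure D5:**
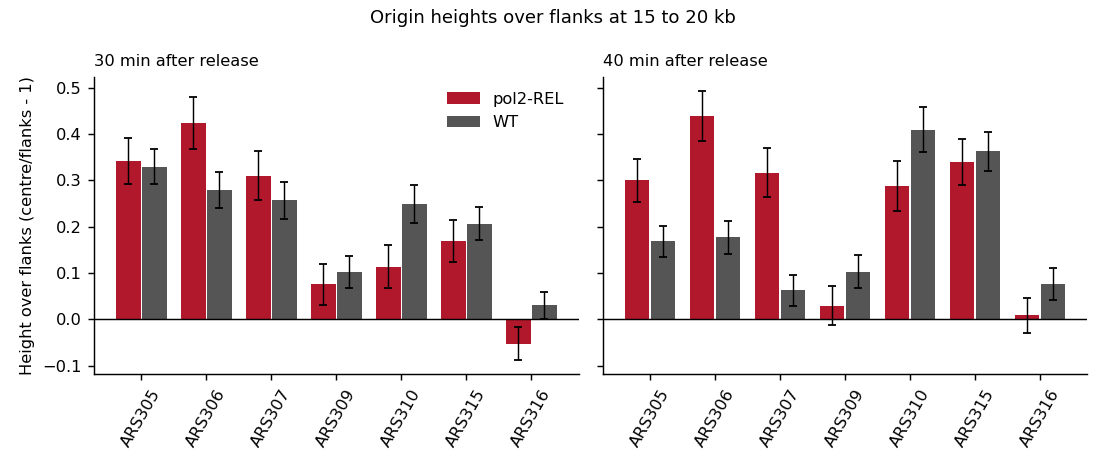
Height of the 7 origins over their flanks (level of the 3 central windows over the mean at 15 to 20 kb, minus 1) at 30 min (left) and 40 min (right), with *pol2-REL* in red and wild type in grey, 1 library each and 95% intervals from read counts alone. At 40 min ARS305, ARS306 and ARS307 stand at 0.300 to 0.440 in *pol2-REL* and at 0.0627 to 0.178 in wild type, while the bars of ARS309, ARS310 and ARS316 are lower in *pol2-REL*.

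Heights at 40 min were higher in *pol2-REL* at the 3 origins on the left, ARS305 to ARS307, and lower at ARS309, ARS310 and ARS316, all beyond counting error as measured. The higher heights on the left stayed beyond counting error under every alternative, while the lower ones each lost it under some. At ARS309 the difference was -0.0731 (-0.128 to -0.0183), against -0.0363 (-0.0912 to 0.0185) with the centre at the local maximum, -0.0173 with the central window alone and -4.37e-05 with flanks at 10 to 15 kb. At ARS316 it was -0.0676 (-0.119 to -0.0165), and it lay within counting error under 6 of 8 alternatives, among them -0.0116 (-0.0628 to 0.0397) with the G1 libraries exchanged. At ARS315 the difference was -0.0236 (-0.0888 to 0.0416). The median over the 7 origins of the height in *pol2-REL* over that in wild type was 0.817 at 30 min and 0.935 at 40 min, and both were the value of ARS315. A ratio of heights is hard to read where a height is near or below 0, as at ARS316 for 30 min, where it was -1.74. The median turned above 1 with the central window alone, at 1.16 for 30 min and 1.17 for 40 min. A height depends on the flanks as much as on the origin. At ARS307 the level at 40 min differed by less than its counting error while the height differed by more, and at ARS310 both differed by more.

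The valleys between origins showed the same blocks. The lowest window between ARS307 and ARS309 at 40 min was 0.911 in *pol2-REL* (start 125001) and 1.15 in wild type (start 120001). The lower of both origins was 1.08 times as high as this low in *pol2-REL* and 1.01 times in wild type. Between ARS309 and ARS310 the lowest window used was that from 148001 in both genotypes, at 0.758 in *pol2-REL* and 0.949 in wild type. It is the last one before chrIII:149001-152000, whose windows were left out, so a low inside that gap cannot be seen. Between ARS310 and ARS315, the longest interval at 58 kb, the order was turned. The low there was 0.793 in *pol2-REL* and 0.745 in wild type, and the wild-type value was the lowest of that profile. Between ARS305 and ARS306 the lows were 1.06 in *pol2-REL* and 1.07 in wild type at 40 min, and 0.869 in *pol2-REL* and 0.812 in wild type at 30 min. The lowest window of *pol2-REL* at 40 min, 0.748, lay to the left of HML in the window from 9001.

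Local maxima lay close to the listed positions for the 6 origins other than ARS316. In all 4 profiles they were at most 2 kb from the listed position, except for ARS309 in wild type at 40 min, where the maximum was 3 kb to its left, on the plateau shared with ARS307. At ARS316 the nearest maximum lay between 2 kb to the left and 4 kb to the right of it. Peak positions in *pol2-REL* differed from those in wild type by at most 1 kb at 30 min outside ARS316, and by at most 2 kb at 40 min.

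G1 profiles were more even along the chromosome than S phase profiles. The SD of reads per window over its mean was 0.129 in *pol2-REL* G1 and 0.132 in wild-type G1, against 0.160 in *pol2-REL* and 0.174 in wild type at 30 min and 0.203 in *pol2-REL* and 0.196 in wild type at 40 min. In blocks of 40 kb the G1 depth of *pol2-REL* over that of wild type lay between 0.987 and 1.02, with the highest value at chrIII:120001-160000, where the *pol2-REL* level was lower at 40 min. The value with S phase reads alone, given above for those windows, holds no G1 library.

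In all, 14 windows of chromosome III, in 5 runs, had no scaled ratio in the *pol2-REL* profiles. Of these, 10 had none in wild type at 30 min either, and 11 had none in wild type at 40 min. The longest was chrIII:85001-91000, with 6 windows between ARS306 and ARS307, and chrIII:149001-152000, with 3 windows, lay between ARS309 and ARS310. Of the 14 windows, 3 held no read in any library. HML and MAT each had 2 of them. In HML the window from 13001 held 182 reads in *pol2-REL* G1 (0.108 of the median of the chromosome) and 263 in wild-type G1 (0.0744). In MAT the window from 200001 held 39 reads in *pol2-REL* G1 (0.0231 of the median) and 66 in wild-type G1 (0.0187). The HMR window from 294001 stood high instead, at 1.51 in *pol2-REL* G1 and 1.45 in wild-type G1. In the R64 annotation the genes of these loci are HMLALPHA2 and HMLALPHA1 at HML, MATALPHA2 and MATALPHA1 at MAT, and HMRA2 and HMRA1 at HMR. The alpha genes at MAT are those of the reference, while the paper lists both genotypes as MATa. MAT and the silent loci share sequence, so reads from one cannot always be told apart from those of another. The levels of HML and MAT above come only from windows outside these runs, while the ratios with all windows of at least 100 reads also use windows inside them. The level of HMR includes its window from 294001.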

How the data were processed

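DNA of 6 libraries (2 genotypes, each before release and 30 and 40 min after it) was sequenced as 50 bp paired-end reads. Mapping by the authors used SacCer2, and they deposited read counts per 1 kb window, without normalization. Windows start every 500 bp, and those starting at position 1 and every 1000 bp after it were used. For each S phase library the authors also deposited a ratio of counts (S phase over G1), a scaled form of it and a smoothed form. The deposited ratio matched the counts to within 0.0005. Per the methods the values were set to a genome mean of 1 and adjusted by DNA content, but no such factor is in the deposited ratio, whose mean is 1 on each chromosome. BWA 0.7.8, Picard 1.110 and cutadapt are named in the submitters' processing notes, and a step to remove duplicates was not given in the sources used here. Ratios were listed only for windows with at least 605 reads in *pol2-REL* and 602 in wild type.

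Levels are means of the scaled ratio over 3 windows at an origin, or over all windows with a ratio at HML, MAT and HMR. Profiles were smoothed by a Gaussian kernel (SD 2 kb), and heights used flanks at 15 to 20 kb. Intervals are 1.96 times the counting error, and those of shares are exact Clopper-Pearson intervals. No test between conditions was run, since each has 1 library. The computation was tested on simulated data with known profiles. Loci named are the 10 listed, the highest and lowest window of each profile, up to 3 further maxima at least 10 kb away and up to 5 runs without a ratio. Runs with a difference of at least 10% were called on the smoothed profiles and hold at least 3 windows. Single windows in them can differ by less before smoothing, while the shares of windows use unsmoothed levels. The loci and lists were chosen with earlier results of these data known. Alternatives changed the G1 library, scaling, windows, read minimum, smoothing, centre and flanks. No genome sequence of this build was used here, so no sequences are given, and gene names come from the R64 annotation. The tools were matplotlib 3.10.9, SciPy 1.17.1, pandas 2.3.3, numpy 2.4.6 and Python 3.11.15.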

Additional observations from a re-analysis of the deposited data

Results flagged for a closer look

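The level at ARS309 changed in opposite directions between the times. At 40 min it was 0.950 times its 30 min level in *pol2-REL* and 1.10 times in wild type, on a scale with a chromosome mean of 1. Each genotype has 1 library per time, so the difference was not tested.

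At ARS316 the level in *pol2-REL* over wild type was 0.934 at 30 min and 1.14 at 40 min. HMR, to its right, had ratios of 0.933 at 30 min and 1.10 at 40 min. At both loci the genotypes thus changed order between the times, and this too was not tested. With a genome mean of 1 in place of the chromosome mean, both ratios at 30 min were 1.34, so the order did not change on that scale.

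Reads were present in windows that the scaled ratio leaves out. Of the 10 chromosome III windows with no ratio in any profile, 7 held more than 3 reads in every library, among them 1 at HML and 2 at MAT.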

How the results depend on the processing

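The spread of chromosome III at 30 min, 1.06 in *pol2-REL* over wild type, was 0.954 with the G1 libraries exchanged, 0.906 with no division by G1, 1.01 with both G1 libraries summed and 1.53 with a genome mean of 1. At 40 min, where it was 1.00, it was 1.06 with no division by G1 and 1.31 with a genome mean of 1. A spread with no division by G1 also holds the unevenness of depth seen in G1. With a genome mean of 1, the share of chromosome III windows lower in *pol2-REL* was 0% for 30 min and 3.30% for 40 min, and that of the genome was not computed. On that scale the levels in *pol2-REL* over wild type were 1.31 at ARS310, 1.34 at ARS316 and 1.34 at HMR at 30 min, and 1.09 at ARS309 and 1.17 at ARS310 at 40 min. That scaling multiplies all of chromosome III by 1 factor per profile and keeps its shape. Requiring a difference of at least 10% gave 5.61% of windows at 30 min and 20.8% at 40 min. The median height ratio was 1.16 at 30 min and 1.17 at 40 min with the central window alone, and 1.18 at 40 min with flanks at 10 to 15 kb. Differences in single heights turned to -0.0422 at ARS306 at 30 min with the G1 libraries exchanged, to 0.0362 at ARS316 at 30 min with the centre at the local maximum, and to 0.0235 at ARS310 at 40 min with flanks at 10 to 15 kb. Of the values of single loci under all alternatives, 187 stayed within the 95% interval of the reported value, 55 moved outside it, and 8, given above, turned round. Only reported values beyond counting error could count as turned. Changes of direction from a value within counting error, as for the height of ARS307 at 30 min, are among the others. Outside a genome mean of 1, 17 of 112 differences in height lost their call and 5 gained one, and 3 of 118 ratios of levels lost it and 11 gained one. The values that did so are given at each locus where they bear on a statement. The interleaved windows left no value at MAT. No paired analysis was possible because there is 1 library per condition, and no library could be left out for the same reason. Depth limits a level at an origin to intervals of about 4% in the ratio of the genotypes, and no value here covers the difference between cultures.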
